A study of Mus musculus with 9 samples.

Results

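Solute carriers are the membrane proteins, named Slc or Slco with a family number, that move amino acids, sugars, metals, ions, nucleotides and vitamins across the plasma membrane and the membranes of lysosomes, mitochondria and the Golgi. The genes described here were chosen by symbol: the pattern of Slc or Slco followed by family number, letters and member number, with antisense (os) and pseudogene (ps) loci left out, and a mean of at least 1 CPM (the gene's counts after all libraries are brought to 1 common total) over all libraries. This gave 182 genes of 383 with such a symbol, in a table of 55450 genes. All 182 were protein-coding in the GENCODE annotation and all 182 passed the filter on low counts. Of the 201 left below the minimum, 89 had 0 counts in every library. Just inside the minimum lay Slc47a1 at 1.15 CPM, Slc7a7 at 1.19 CPM and Slc39a2 at 1.35 CPM, and just outside it Slc41a3 at 0.949 CPM, Slc18a1 at 0.921 CPM and Slc22a4 at 0.907 CPM. The symbol pattern also took in 2 genes whose products are no carriers, the scaffold protein Slc9a3r1 (NHERF1) and the adaptor protein Slc4a1ap.

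RNA came from IMM cells, an immortalized mouse macrophage line with the genotype given as WT, grown in DMEM with serum. The groups were cells with 60 min of lipopolysaccharide (LPS) at 100 ng/mL, cells with 30 min of the same LPS, and the 0 min control, with 3 libraries each and 9 in all. LPS comes from the outer membrane of Gram-negative bacteria and is the ligand of the macrophage receptor Tlr4. No library was made without LPS at 30 or 60 min, so that LPS, handling and elapsed time cannot be told apart. Libraries were of total RNA after removal of ribosomal RNA, so unspliced RNA could be sequenced along with mature mRNA. How much of it entered the counts is not known from the sources used here. In such bulk RNA, fewer cells that express a gene and less RNA per cell cannot be told apart either.

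An activated macrophage is known to change what it takes up and releases. Glucose enters through facilitative carriers of the Slc2 family and lactate leaves through proton-coupled carriers of the Slc16 family. Cystine for glutathione enters through the exchanger xCT, made of the light chain Slc7a11 and the heavy chain Slc3a2. Iron, copper and zinc are moved into or out of the cytosol and the phagosome by the Slc11, Slc31, Slc30, Slc39 and Slc40 families, and lysosomal carriers of the Slc15 family export histidine and small peptides, among them fragments of bacterial cell wall.

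The libraries held 26867428 to 30402308 counts each, and the spread between replicates was small, with a biological coefficient of variation of 5.2% over the genes tested. The 6 macrophage markers examined, Csf1r, Cd68, Lyz2, Itgam, Adgre1 and Mertk, lay between 16.9 and 628.0 CPM as group means, whereas no marker of fibroblasts, epithelial, T, B, endothelial cells or neutrophils exceeded 0.801 CPM. The labels call the libraries of a time biological replicates, and nothing else in the sources used here says how they were separated.

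The 60 min cells had more of the solute carrier genes higher than lower, a balance that turned round when libraries were scaled by their plain totals. Against 0 min, 41 of the 182 genes (22.5%) rose and 24 (13.2%) fell at 60 min, while of all 14246 genes tested 13.3% rose and 11.7% fell. The share that fell was close to that of all genes, and the share that rose was above it. All genes tested included ones below the 1 CPM minimum set for members, and whether that bears on these shares was not tested. At 30 min against 0 min, 16 (8.79%) rose and 5 (2.75%) fell, with 4.84% and 3.35% of all genes. Between the later times, 27 (14.8%) were higher and 15 (8.24%) lower at 60 min than at 30 min, with 8.87% and 7.65% of all genes. A gene was called at a Benjamini-Hochberg adjusted p under 0.05 in edgeR's quasi-likelihood test, adjusted over all genes tested. Without 30 min replicate 2, 10 members rose at 30 min. Falls at 30 min numbered 2 when 0 min replicate 1 or 30 min replicate 1 or 2 was left out, and 3 without 0 min replicate 3 or 30 min replicate 3. Without 30 min replicate 3 or 60 min replicate 1, 8 members were lower at 60 min than at 30 min. Both 30 min and 60 min were set against the same 0 min libraries.

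Most of these changes were small. The median size of the log2 change among called members was 0.26 for rises and 0.28 for falls at 60 min, against 0.38 and 0.35 for all genes called. At 30 min it was 0.25 for rises and 0.22 for falls, against 0.50 and 0.44 for all genes called. At least 2-fold rises at 60 min were found for 4 members, Slc15a3, Slc31a2, Slc7a11 and Slc2a6, and an at least 2-fold fall for 1, Slc27a3, where all genes gave 3.03% and 1.25%. At 30 min 1 member, Slc15a3, was at least 2-fold higher and none was at least 2-fold lower, where all genes gave 1.41% and 0.414%. From 30 to 60 min Slc31a2 was at least 2-fold higher and Slc27a3 at least 2-fold lower, where all genes gave 1.64% and 0.807%. The median log2 change over all 182 members was 0.010 at 60 min, 0.026 at 30 min and -0.011 between them, close to the 0.001, 0.006 and 0.001 of all genes.

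The split between rises and falls depended on how libraries were scaled. With plain library totals in place of edgeR's TMM factors, 26 members rose and 43 fell at 60 min against 0 min (37.7% of calls were rises, against 63.1%), and 21 were higher and 27 lower at 60 min than at 30 min (43.8% against 64.3%). At 30 min the split was then 12 and 6 (66.7% against 76.2%). That scaling moved the median log2 change of all genes by less than 0.1 (to -0.068 at 60 min), and that of the members to -0.059. The share of all genes called with plain totals is not given here, so the turn cannot be called particular to the members. The summed level of the 182 genes was 11878 to 11959 CPM at 0 min, 12369 to 12558 CPM at 30 min and 12828 to 12897 CPM at 60 min, and the ranges did not overlap. As a share of plain totals it was 1.21% to 1.23%, 1.24% to 1.26% and 1.24% to 1.27%, and the 30 and 60 min ranges then overlapped.

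**Figure D1:**
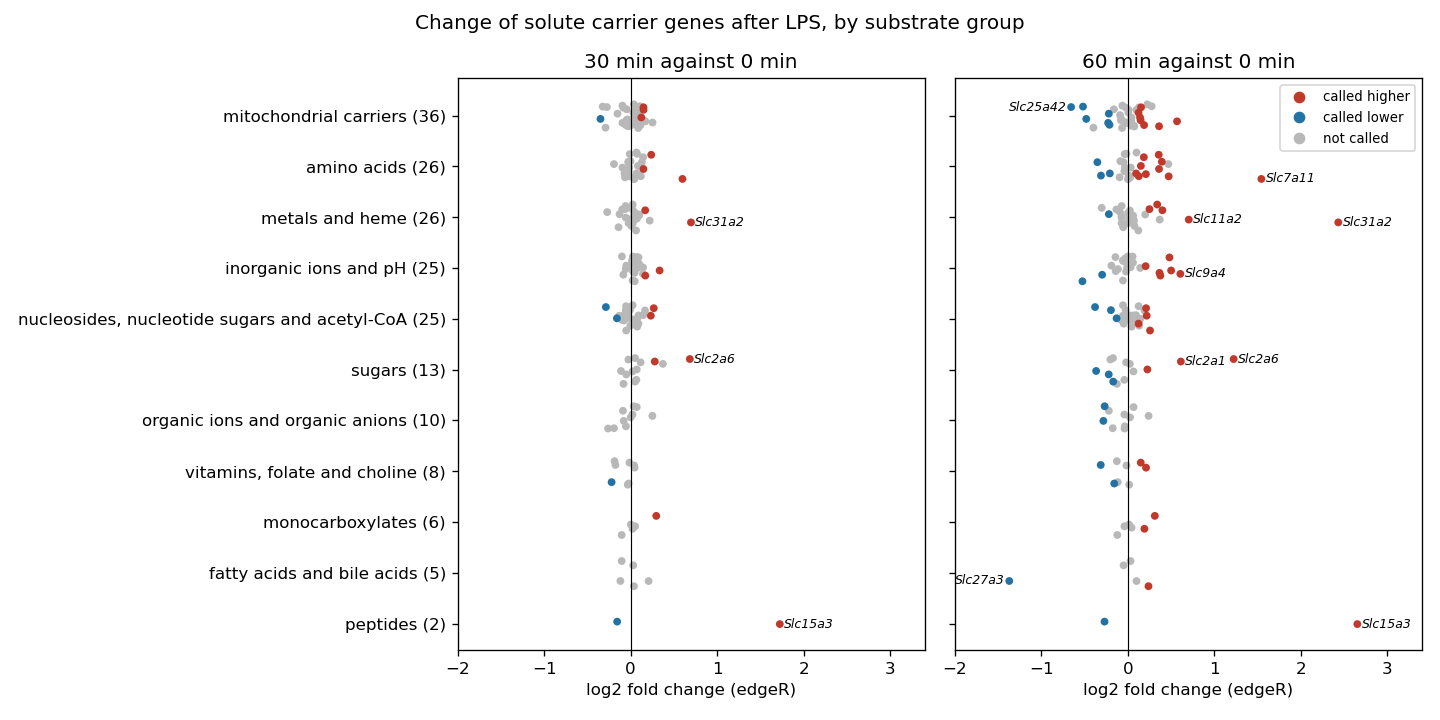
Log2 fold change of each of the 182 genes (1 point each) at 30 min against 0 min (left) and at 60 min against 0 min (right), from edgeR, in rows by family group with the number of genes in brackets; vertical position within a row has no meaning. Most points lie near 0, and Slc15a3, Slc31a2, Slc7a11 and Slc2a6 stand to the right of the rest at 60 min, with Slc27a3 alone at the far left.

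Slc15a3, a lysosomal carrier of histidine and small peptides, changed most. It had 14.7, 14.4 and 14.4 CPM at 0 min, 56.9, 41.4 and 45.8 CPM at 30 min and 90.4, 91.8 and 91.6 CPM at 60 min. Every library of a later time lay above every library of the earlier one. The log2 change was 2.65 (SE 0.09, adjusted p = 3.97e-11) at 60 min and 1.73 (SE 0.09, adjusted p = 1.06e-08) at 30 min, that is 6.29-fold and 3.31-fold over 0 min. Slc15a3 lies at chr19:10839727-10859362 on the plus strand (ENSMUSG00000024737.2), and 1541 of its exon bases are shared with Tmem132a on the opposite strand, whose log2 change at 60 min was 0.18 (adjusted p = 0.142).

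Slc31a2, a copper transporter of internal membranes, was low before LPS. It had 3.19, 3.51 and 4.54 CPM at 0 min, 7.62, 5.90 and 4.80 CPM at 30 min and 23.3, 17.9 and 19.9 CPM at 60 min. The 60 min libraries stood far above the rest, while the lowest library at 30 min was only just above the highest at 0 min. The log2 change was 2.43 (SE 0.16, adjusted p = 3.43e-08) at 60 min and 0.70 (SE 0.18, adjusted p = 0.0235) at 30 min. The call at 30 min was lost in limma-voom and when any one of replicates 1 and 2 at 0 min and at 30 min was left out, with adjusted p between 0.0529 and 0.102. The gene lies at chr4:62262562-62298411 (plus strand, ENSMUSG00000066152.11).

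Slc7a11, the light chain of xCT, which brings in cystine in exchange for glutamate, had 52.8, 47.5 and 56.9 CPM at 0 min, 85.4, 74.5 and 78.7 CPM at 30 min and 165, 148 and 146 CPM at 60 min. The 3 times did not overlap. Its log2 change was 1.54 (SE 0.07, adjusted p = 4.82e-10) at 60 min and 0.60 (SE 0.07, adjusted p = 3.61e-05) at 30 min. The gene lies at chr3:49892526-50443614 on the minus strand (ENSMUSG00000027737.10).

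Slc2a6 (GLUT6), a hexose carrier found on lysosomes, had 49.7, 41.8 and 50.7 CPM at 0 min, 82.6, 72.0 and 74.0 CPM at 30 min and 111, 109 and 112 CPM at 60 min. Again no library of one time reached into the range of another. The log2 change was 1.22 (SE 0.06, adjusted p = 3.49e-09) at 60 min and 0.68 (SE 0.07, adjusted p = 6.48e-06) at 30 min. Slc2a6 lies at chr2:27021363-27027998 on the minus strand (ENSMUSG00000036067.12). In Slc15a3, Slc31a2, Slc7a11 and Slc2a6 alike, replicate 1 was the highest of the 30 min libraries, and without it their log2 changes at 30 min were 1.58, 0.51, 0.55 and 0.62.

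The largest fall was that of Slc27a3, an acyl-CoA synthetase of the fatty acid transport protein family. It had 3.04, 3.65 and 3.44 CPM at 0 min, 2.48, 3.19 and 3.68 CPM at 30 min and 1.54, 1.66 and 0.713 CPM at 60 min. The 30 min libraries spread around those of 0 min, and the 60 min libraries were all below both. The log2 change at 60 min was -1.37 (SE 0.24, adjusted p = 0.000691), or 2.59-fold lower, and without 60 min replicate 3, the lowest library, it was -1.08. The gene lies at chr3:90385239-90389938 on the minus strand (ENSMUSG00000027932.14).

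**Figure D2:**
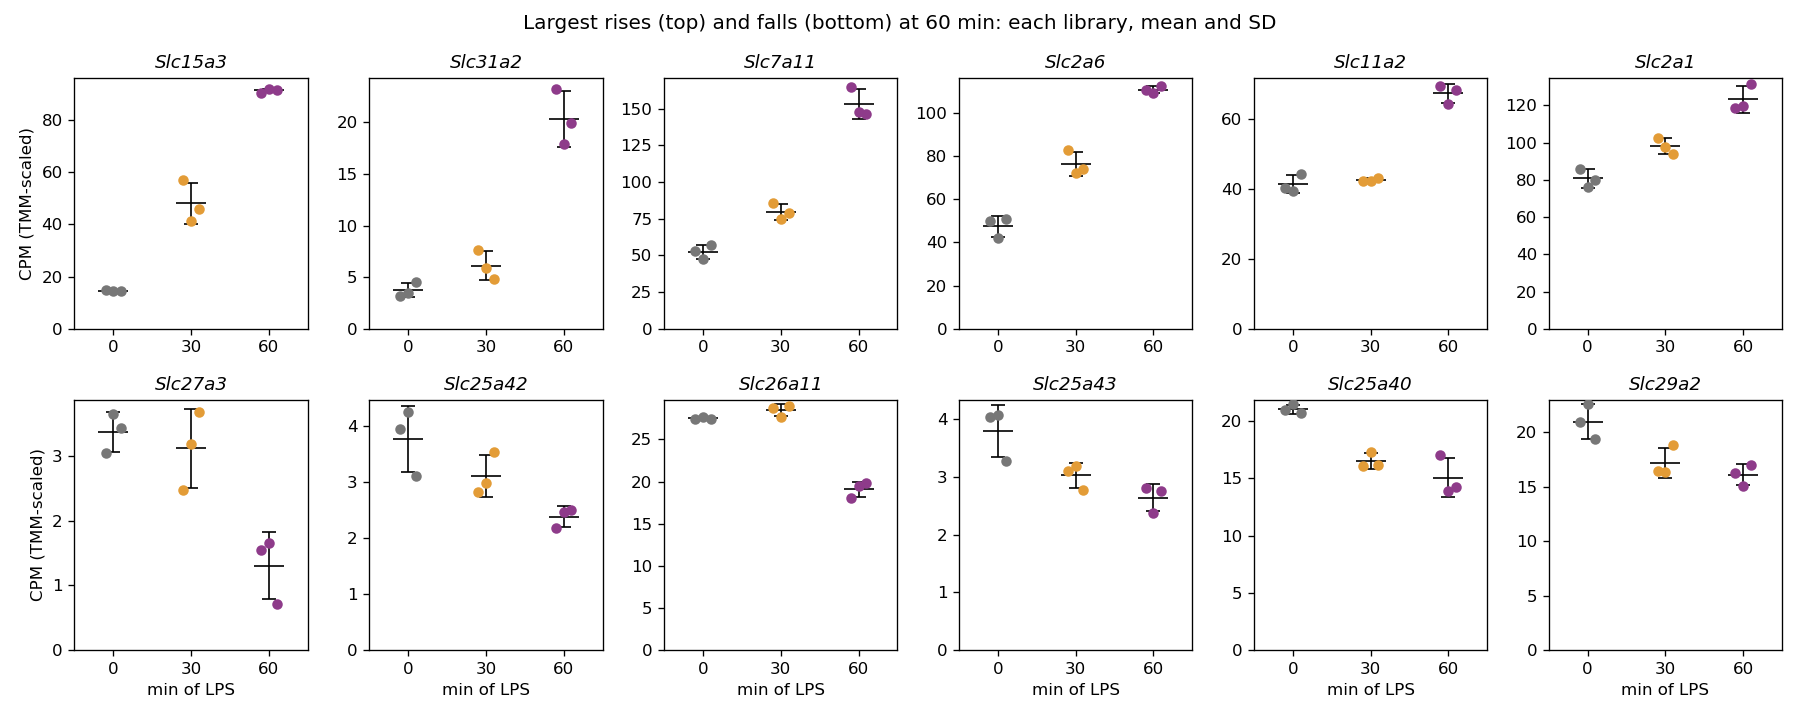
TMM-scaled CPM of the 6 largest rises (top row) and the 6 largest falls (bottom row) at 60 min among called members, at 0, 30 and 60 min of LPS; points are libraries (3 per time), the long dash is the mean and the bars are the SD. Slc15a3, Slc7a11, Slc2a6 and Slc2a1 climb at both steps, Slc11a2 and Slc26a11 lie near their 0 min level at 30 min and away from it at 60 min, and Slc25a40 is already lower at 30 min.

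Promoter sequences are shown for the members that changed at least 2-fold at 60 min and had an entry in the RefSeq promoter table. No binding to these sequences was measured. Each is the 250 bases before the RefSeq start on GRCm38.p6, 5′ to 3′ along the gene's strand, in lower case, with matches to 6 short motifs in capitals. The motifs, searched on both strands, were TGATGNAA (C/EBP-ATF composite), TGACNNNGC (antioxidant response), TGANTCA (AP-1), GGGANNTTC (NF-kB), ACGTG (hypoxia response) and TGACGTCA (CRE).
Slc31a2: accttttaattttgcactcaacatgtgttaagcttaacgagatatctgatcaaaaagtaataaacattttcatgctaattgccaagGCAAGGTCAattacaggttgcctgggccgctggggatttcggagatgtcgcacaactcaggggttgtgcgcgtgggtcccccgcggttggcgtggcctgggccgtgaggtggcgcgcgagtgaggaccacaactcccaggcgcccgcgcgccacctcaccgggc
Slc7a11: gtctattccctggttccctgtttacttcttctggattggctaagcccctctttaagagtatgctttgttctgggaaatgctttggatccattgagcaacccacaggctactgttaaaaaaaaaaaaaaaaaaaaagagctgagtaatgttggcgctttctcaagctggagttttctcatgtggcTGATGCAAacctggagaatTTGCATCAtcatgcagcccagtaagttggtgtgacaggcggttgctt
Slc2a6: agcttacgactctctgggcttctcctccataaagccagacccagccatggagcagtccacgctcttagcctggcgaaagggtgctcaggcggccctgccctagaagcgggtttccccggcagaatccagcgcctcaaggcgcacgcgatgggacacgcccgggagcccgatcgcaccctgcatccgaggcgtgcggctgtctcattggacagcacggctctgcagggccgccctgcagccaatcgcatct
Slc27a3: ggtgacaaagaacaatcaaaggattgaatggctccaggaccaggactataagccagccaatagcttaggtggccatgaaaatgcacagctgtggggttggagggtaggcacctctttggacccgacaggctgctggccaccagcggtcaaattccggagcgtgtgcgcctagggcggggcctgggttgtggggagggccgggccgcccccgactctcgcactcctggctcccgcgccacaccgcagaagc

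The Slc7a11 stretch (chr3:50443614-50443863, minus strand) held 2 matches to the C/EBP-ATF letters, on opposite strands, whose positions relative to the start were -66 and -47. The Slc31a2 stretch (chr4:62286179-62286428, plus strand) held 1 match to the antioxidant letters at -164, and its RefSeq start lies inside the longer span that GENCODE gives the gene. Bases just after that start were not found in the GENCODE transcripts of Slc31a2, while those of the other printed genes were found in theirs. Whether this start was used in these cells is not known. The Slc2a6 stretch (chr2:27027999-27028248, minus strand) and the Slc27a3 stretch (chr3:90389939-90390188, minus strand) held none of the 6. In the 50 bases after the start, which are not printed, Slc31a2 had overlapping hypoxia matches on both strands, at 1 and 2, and Slc27a3 had 1 at 35. How often these letters occur in promoters differed by motif. Among 32851 promoters of the table, counted with 50 bases after the start, 3.97% held the C/EBP-ATF letters and 12.4% the antioxidant letters. Of the 192 promoters of the 137 members with an entry, 3.12% and 20.8% did. The NF-kB letters were in 3.94% of all promoters and 3.12% of member promoters. AP-1 letters were in 7.81% of all and 6.25% of member promoters, CRE letters in 1.79% and 1.56%, and hypoxia letters in 19.6% and 27.1%. Of the 42 promoters of members that rose at 60 min, 12 held the antioxidant letters, 11 hypoxia, 2 AP-1, 1 C/EBP-ATF and none NF-kB or CRE. Of the 30 promoters of members that fell, 7 held the antioxidant letters, 7 hypoxia, 2 NF-kB and 1 each AP-1, C/EBP-ATF and CRE. A match describes letters and is not a bound site.

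The Slc15 pair moved in opposite directions. Slc15a4, the other lysosomal histidine and peptide carrier, had 34.7, 33.8 and 33.3 CPM at 60 min, against 41.8, 40.3 and 40.8 CPM at 0 min, and 36.5, 36.7 and 37.2 CPM at 30 min lay between. It fell by 0.27 on the log2 scale at 60 min (adjusted p = 0.000176) while Slc15a3 rose. The smaller fall at 30 min, -0.16 (adjusted p = 0.0279), was not called in DESeq2, with the replicate numbers as a block, or without any single one of 0 min replicates 1 and 3 and 30 min replicates 1, 2 and 3 (adjusted p 0.0578 to 0.121).

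Among the 26 genes of the amino acid families (Slc1, Slc3, Slc6, Slc7, Slc36, Slc38 and Slc43), 10 rose and 3 fell at 60 min (6 and 5 with plain totals), and 3 rose and 0 fell at 30 min. With TMM factors, 13.3% of all genes tested rose and 11.7% fell at 60 min, and 4.84% and 3.35% at 30 min. The counts of this and each later family group are small and were not tested against these shares. Slc3a2, the heavy chain (CD98) that brings the Slc7 light chains to the plasma membrane, had 191, 187 and 186 CPM at 0 min, 222, 223 and 219 CPM at 30 min and 233, 236 and 252 CPM at 60 min. The times did not overlap, and the log2 change was 0.36 (adjusted p = 3.96e-06) at 60 min and 0.24 (adjusted p = 0.00059) at 30 min. The further step from 30 to 60 min, 0.12 (adjusted p = 0.0375), was lost with plain totals, with a replicate block and without 30 min replicate 1, 2 or 3 or 60 min replicate 2 or 3 (adjusted p 0.0592 to 0.157).

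The light chains of Slc3a2 did not share one course. Beside Slc7a11, Slc7a8 (LAT2, neutral amino acids) was higher at 60 min, with 104, 92.6 and 109 CPM at 60 min against 71.4, 83.0 and 65.7 CPM at 0 min, and 71.9, 74.8 and 71.8 CPM at 30 min. All its 60 min libraries lay above all others, and its log2 change was 0.47 at 60 min (adjusted p = 0.000229) and -0.01 at 30 min (adjusted p = 0.961), and 0.48 between these times (adjusted p = 0.000327). Slc7a5 (LAT1, the main carrier of leucine) had 238, 239 and 244 CPM at 60 min, against 231, 217 and 226 CPM at 0 min, and did not pass the test (log2 change 0.10, SE 0.04, adjusted p = 0.0624). Slc7a6 had a log2 change of -0.04 (SE 0.05, adjusted p = 0.636) at 60 min. The nearly silent Slc7a7, with 1.79, 1.25 and 1.53 CPM at 60 min against 1.17, 1.19 and 0.941 CPM at 0 min, had 0.47 with a wide error (SE 0.22, adjusted p = 0.137).

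**Figure D3:**
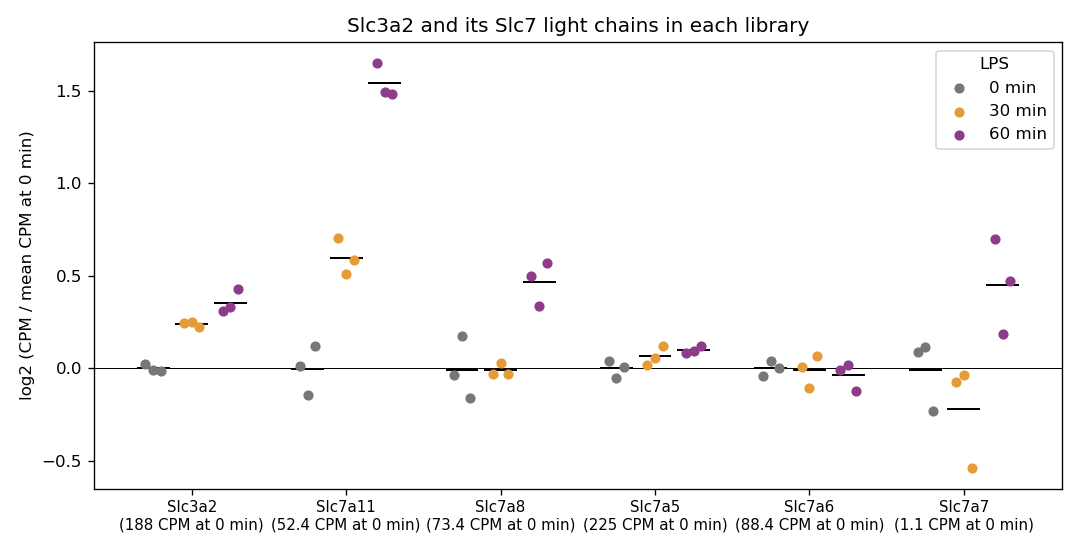
Log2 ratio of each library's CPM to the gene's mean CPM at 0 min, for Slc3a2 and 5 Slc7 light chains at 0, 30 and 60 min of LPS; points are libraries, short lines are means, and the mean CPM at 0 min stands under each name. Slc7a11 rises at both times, Slc3a2 by less at both, Slc7a8 at 60 min, while Slc7a5 and Slc7a6 stay near 0.

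The arginine and glutamine carriers Slc7a1, Slc7a2 and Slc1a5 changed little. Slc7a1 (CAT1, cationic amino acids) had 522, 525 and 536 CPM at 60 min, against 460, 462 and 449 CPM at 0 min, a log2 change of 0.21 (adjusted p = 0.000175) with no overlap. The inducible arginine carrier Slc7a2 had 85.3, 81.4 and 82.4 CPM at 60 min and 80.3, 85.9 and 77.3 CPM at 0 min, overlapping ranges (log2 change 0.03, adjusted p = 0.631). Slc1a5 (ASCT2, glutamine) had a log2 change of 0.02 (SE 0.04, adjusted p = 0.721). The neighbouring neutral amino acid carriers Slc38a1 and Slc38a2, 44.5 kb apart on chromosome 15, rose by 0.09 (adjusted p = 0.0342) and 0.13 (adjusted p = 0.0158) from high levels. The call of Slc38a1 was lost under 12 of 17 alternatives (adjusted p 0.0503 to 0.565), among them without each 0 min and each 60 min replicate and without 30 min replicate 1 or 2. That of Slc38a2 was lost with plain totals and without 0 min replicate 1 or 60 min replicate 1 (adjusted p 0.0559 to 0.269).

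Other amino acid family genes that rose at 60 min were the creatine carrier Slc6a8 (log2 change 0.36, adjusted p = 3.92e-06) and Slc43a3 (0.39, adjusted p = 0.000131), which despite its family carries purine nucleobases. The glycine carrier Slc6a9 (0.18, adjusted p = 0.0243) and Slc36a4 (0.15, adjusted p = 0.0437) passed more narrowly. The call of Slc6a9 was lost in DESeq2, with plain totals and without 0 min replicate 1 or 2 or any 60 min replicate (adjusted p 0.052 to 0.155). That of Slc36a4 was lost in DESeq2, in limma-voom, with plain totals and with a replicate block. It was also lost without any 0 min replicate, 30 min replicate 3 or 60 min replicate 1 or 2 (adjusted p 0.0516 to 0.243 over all these alternatives).

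The amino acid family genes that fell at 60 min were Slc36a1, Slc38a9 and Slc38a6. Slc36a1 (PAT1), which exports small amino acids from lysosomes, had 31.6, 33.5 and 34.3 CPM at 60 min, against 42.7, 41.0 and 43.3 CPM at 0 min (log2 change -0.35, adjusted p = 7.95e-05). Slc38a9, the lysosomal arginine sensor that signals to mTORC1, had 17.7, 17.8 and 19.0 CPM at 60 min, against 22.5, 23.2 and 22.1 CPM at 0 min (-0.31, adjusted p = 0.000746), and at 30 min its libraries had 24.5, 24.3 and 23.5 CPM. In both genes the 60 min libraries lay below all those of the earlier times. Slc38a6 fell by 0.21 (adjusted p = 0.00768).

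Of the 13 genes of the sugar families, 3 rose and 3 fell at 60 min (2 and 5 with plain totals) and 2 rose at 30 min. Slc2a1 (GLUT1), the main glucose importer of many cells, had 86.0, 76.2 and 79.9 CPM at 0 min, 102, 97.5 and 93.9 CPM at 30 min and 119, 120 and 132 CPM at 60 min. The times were separate, and the log2 change was 0.61 (adjusted p = 7.06e-07) at 60 min and 0.28 (adjusted p = 0.00387) at 30 min. The high-affinity glucose carrier Slc2a3 (GLUT3) had 39.7, 41.1 and 41.0 CPM at 60 min and 39.2, 42.1 and 44.1 CPM at 0 min, with overlap (log2 change -0.04, SE 0.05, adjusted p = 0.622). Slc2a9, a urate carrier, rose by 0.22 (adjusted p = 0.032), a call lost under 9 of 17 alternatives, including without each 0 min replicate and without 60 min replicate 1 or 2 (adjusted p 0.0554 to 0.142).

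Of the 4 sugar phosphate carriers of the Slc37 family, 2 fell. Slc37a2, an endoplasmic reticulum protein abundant in macrophages, had 32.9, 32.5 and 32.2 CPM at 60 min, against 42.7, 41.5 and 41.8 CPM at 0 min, and the groups did not overlap (log2 change -0.37, adjusted p = 8.56e-06). Slc37a1 (-0.17, adjusted p = 0.193) and Slc37a4 (0.06, adjusted p = 0.612) did not pass. Slc37a3 fell by 0.17 (adjusted p = 0.0328) and the small sugar carrier Slc50a1 by 0.22 (adjusted p = 0.0459). Both calls were lost in DESeq2, with no filter on low counts, when 0 min replicate 1 or 3 was left out, and when any 60 min replicate was. That of Slc50a1 was also lost without any 30 min replicate. Adjusted p over the alternatives that lost them was 0.0523 to 0.102 for Slc37a3 and 0.0538 to 0.168 for Slc50a1. Slc5a3, the myo-inositol carrier, and Slc5a6, which carries vitamins rather than sugars, did not pass (-0.13, adjusted p = 0.0899, and -0.20, adjusted p = 0.0514).

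Among the 6 Slc16 genes, 2 rose and none fell at 60 min (2 and 1 with plain totals). Slc16a3 (MCT4), which exports lactate, had 171, 177 and 193 CPM at 0 min, 219, 218 and 228 CPM at 30 min and 232, 236 and 204 CPM at 60 min. Both later times lay above 0 min and overlapped each other, with log2 changes of 0.31 (adjusted p = 0.000826) at 60 min and 0.30 (adjusted p = 0.00358) at 30 min. Slc16a1 (MCT1), the lactate and pyruvate carrier, had 421, 437 and 395 CPM at 60 min and 395, 437 and 411 CPM at 0 min. The ranges coincided, and its log2 change was 0.01 (SE 0.04, adjusted p = 0.878). Slc16a10, which carries aromatic amino acids and thyroid hormone rather than lactate, rose by 0.19 at 60 min (adjusted p = 0.00187).

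Among 26 metal and heme genes, 5 rose and 1 fell at 60 min (4 and 6 with plain totals), and 2 rose at 30 min. Beside Slc31a2, its neighbour Slc31a1 (CTR1, the copper importer of the plasma membrane), 62.3 kb away on the same strand, had 97.3, 87.2 and 89.2 CPM at 60 min, against 71.6, 71.4 and 73.4 CPM at 0 min, and 74.8, 72.9 and 72.3 CPM at 30 min. All 60 min libraries were above the others, with a log2 change of 0.34 (adjusted p = 3.09e-05) at 60 min and 0.02 (adjusted p = 0.805) at 30 min.

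Iron carriers differed from each other. Slc11a2 (DMT1), which moves ferrous iron into the cytosol, had 40.3, 39.5 and 44.3 CPM at 0 min, 42.4, 42.2 and 43.3 CPM at 30 min and 69.6, 64.3 and 68.3 CPM at 60 min. The 30 min libraries lay within the 0 min range and the 60 min libraries well above, with log2 changes of 0.04 (adjusted p = 0.68) at 30 min and 0.70 (SE 0.05, adjusted p = 4.81e-08) at 60 min. Its relative in the phagosome membrane, Slc11a1 (Nramp1), had a log2 change of 0.07 (SE 0.04, adjusted p = 0.189) at 60 min. The iron exporter Slc40a1 (ferroportin) was scarce, with 5.30, 5.02 and 4.41 CPM at 60 min against 5.61, 6.89 and 5.68 CPM at 0 min (log2 change -0.30, SE 0.12, adjusted p = 0.0702), and was called lower with plain library totals. Mitoferrin Slc25a37, which brings iron into mitochondria, rose by 0.36 (adjusted p = 1.4e-05), with 104, 96.5 and 101 CPM at 60 min against 78.2, 76.5 and 80.3 CPM at 0 min.

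Of the zinc carriers, Slc39a1 (ZIP1, uptake) had 120, 115 and 124 CPM at 0 min, 137, 131 and 136 CPM at 30 min and 157, 158 and 158 CPM at 60 min, separate at each step (log2 change 0.40 at 60 min, adjusted p = 9.26e-07). Slc30a6, which loads zinc into the Golgi with a partner, rose by 0.25 (adjusted p = 0.0173) and Slc39a8 (ZIP8) fell by 0.22 (adjusted p = 0.0274). Both were lost in DESeq2. Slc30a6 was also lost with plain totals and without 0 min replicate 1 or 60 min replicate 2 (adjusted p 0.0677 to 0.0777 over these alternatives). Slc39a8 was also lost without 0 min replicate 2 or 3 or 60 min replicate 2 or 3 (0.0504 to 0.102). Slc39a14 (ZIP14), which carries zinc and iron, had 92.0, 93.7 and 94.4 CPM at 60 min and 92.9, 88.2 and 93.4 CPM at 0 min (log2 change 0.03, SE 0.04, adjusted p = 0.623). The exporter Slc30a1 had -0.06 (adjusted p = 0.564).

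Among 25 genes of the inorganic ion families, 6 rose and 2 fell at 60 min (5 and 6 with plain totals), and 2 rose at 30 min. Slc20a1 (PiT1), a sodium-dependent phosphate importer, had 206, 205 and 207 CPM at 0 min, 272, 248 and 259 CPM at 30 min and 291, 288 and 294 CPM at 60 min, with no overlap. Its log2 change was 0.50 (SE 0.04, adjusted p = 8.91e-08) at 60 min and 0.34 (SE 0.04, adjusted p = 1.84e-05) at 30 min, whereas the related Slc20a2 had 0.03 (adjusted p = 0.734) at 60 min.

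Several carriers that set pH rose. The sodium and bicarbonate cotransporter Slc4a7 had 147, 144 and 133 CPM at 60 min, against 98.2, 106 and 99.9 CPM at 0 min (log2 change 0.48, adjusted p = 1.58e-06), and the Golgi sodium and proton exchanger Slc9a8 had 98.7, 96.1 and 103 CPM, against 78.0, 75.8 and 76.0 CPM (0.38, adjusted p = 4.78e-06). In both, no 60 min library overlapped 0 min. The sparse exchanger Slc9a4 had 4.24, 4.41 and 4.99 CPM at 60 min, against 2.75, 3.76 and 2.47 CPM at 0 min (0.61, SE 0.15, adjusted p = 0.00885). Slc8b1, the sodium and calcium exchanger of mitochondria, rose by 0.36 (adjusted p = 0.00328). The potassium and chloride cotransporters split, with Slc12a4 higher by 0.20 (adjusted p = 0.0158) and Slc12a7 lower (-0.30, adjusted p = 0.000683). The Slc12a4 call was lost with plain totals and without 0 min replicate 2 or 3 or 60 min replicate 3 (adjusted p 0.0566 to 0.0839).

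Slc26a11, a sulfate and chloride transporter, showed the clearest late fall. It had 27.4, 27.7 and 27.4 CPM at 0 min, 28.7, 27.6 and 29.0 CPM at 30 min and 18.1, 19.4 and 19.8 CPM at 60 min. The 60 min libraries were apart from all others, and the log2 change was -0.53 (SE 0.05, adjusted p = 3.47e-06) at 60 min and 0.05 (adjusted p = 0.648) at 30 min. The non-carriers in this group, Slc9a3r1 and Slc4a1ap, had -0.04 (adjusted p = 0.734) and -0.12 (adjusted p = 0.0685) at 60 min.

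The 36 genes of the Slc25 family, nearly all of the inner mitochondrial membrane, gave 7 rises and 6 falls at 60 min (2 and 8 with plain totals), and 3 rises and 1 fall at 30 min. Beside Slc25a37, the pyrimidine nucleotide carrier Slc25a33 rose by 0.57 (SE 0.12, adjusted p = 0.00292), with 11.3, 11.7 and 10.4 CPM at 60 min against 6.42, 8.72 and 7.37 CPM at 0 min. The other rises were small and from high levels. Slc25a5 (ANT2, which exchanges ADP and ATP) rose by 0.15 (adjusted p = 0.00624), the phosphate carrier Slc25a3 by 0.12 (adjusted p = 0.00952) and Slc25a39, which brings in glutathione, by 0.14 (adjusted p = 0.00973). The citrate carrier Slc25a1 (0.15, adjusted p = 0.0383) and Slc25a17 (0.19, adjusted p = 0.0267), which sits in peroxisomes, also passed. With plain library totals none of Slc25a1, Slc25a3, Slc25a5, Slc25a17 and Slc25a39 was called. Leaving out single libraries also ended the calls of Slc25a39 (60 min replicate 2), Slc25a1 (0 min replicate 1 or 2, 30 min replicate 2, 60 min replicate 2 or 3) and Slc25a17 (0 min replicate 1 or 2, 60 min replicate 1 or 2). The adjusted p over these alternatives ran to 0.259 for Slc25a1, 0.159 for Slc25a17 and 0.157 for Slc25a39.

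The falls in the Slc25 family ranged in size from 0.21 to 0.66 on the log2 scale. Slc25a42, which brings coenzyme A into mitochondria, had 2.17, 2.48 and 2.51 CPM at 60 min, against 3.96, 4.25 and 3.12 CPM at 0 min (log2 change -0.66, SE 0.15, adjusted p = 0.00525). Slc25a43 had 2.81, 2.37 and 2.75 CPM at 60 min, against 4.03, 4.08 and 3.28 CPM at 0 min (-0.52, adjusted p = 0.0119), a call lost in DESeq2 and without 0 min replicate 1 or 60 min replicate 2 (adjusted p 0.051 to 0.0611). Slc25a40, a relative of Slc25a39, had 20.9, 21.5 and 20.7 CPM at 0 min, 16.1, 17.3 and 16.2 CPM at 30 min and 17.0, 13.9 and 14.3 CPM at 60 min. Both later times were below 0 min and overlapped each other, with log2 changes of -0.48 (adjusted p = 0.00029) at 60 min and -0.35 (adjusted p = 0.0102) at 30 min. The glutamate carrier Slc25a22 (-0.21), the ATP-Mg and phosphate carrier Slc25a23 (-0.22) and Slc25a45 (-0.23) fell by less, with adjusted p of 0.00259, 0.00562 and 0.0252. The Slc25a45 call was lost without 0 min replicate 1 or 2 or 60 min replicate 3 (adjusted p 0.0679 to 0.102).

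Among these 36, 1 gene went up and came back. Slc25a36, a pyrimidine nucleotide carrier like Slc25a33, had 57.8, 62.4 and 61.7 CPM at 0 min, 67.8, 67.7 and 66.4 CPM at 30 min and 60.8, 61.2 and 60.9 CPM at 60 min. Its 30 min libraries lay above all the rest, with a log2 change of 0.15 (adjusted p = 0.0232) at 30 min against 0 min and -0.14 (adjusted p = 0.0168) at 60 min against 30 min. The first call was lost without 0 min replicate 1 and without 30 min replicate 1 or 2 (adjusted p 0.0573 to 0.106 over all alternatives that lost it). The second was lost in DESeq2 and without 30 min replicate 1 or 2 or 60 min replicate 1 (0.052 to 0.0604).

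The 25 genes for nucleosides, nucleotide sugars and acetyl-CoA gave 4 rises and 3 falls at 60 min (2 and 5 with plain totals), and 2 rises and 2 falls at 30 min. The nucleoside carrier Slc29a2 (ENT2) fell, with 16.3, 15.1 and 17.0 CPM at 60 min against 20.9, 22.6 and 19.4 CPM at 0 min (log2 change -0.38, adjusted p = 0.00227). At 30 min it was at -0.29 (adjusted p = 0.0353), a call lost with a replicate block and without 0 min replicate 1 or 2 or 30 min replicate 1 or 2 (adjusted p 0.0669 to 0.139). The lysosomal Slc29a3 (ENT3) fell by 0.20 (adjusted p = 0.017), a call that ended when 0 min replicate 1 or 60 min replicate 1 or 2 was left out (0.0529 to 0.0779). The plasma membrane Slc29a1 (ENT1) had 0.01 (adjusted p = 0.946).

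Among Golgi and related Slc35 genes, Slc35f6 (0.26, adjusted p = 0.00106) and Slc35e4 (0.22, adjusted p = 0.00281) rose at 60 min. Slc35e4 had already reached its level at 30 min (0.23, adjusted p = 0.00483). Slc35b3, which carries the sulfate donor PAPS into the Golgi, had 16.7, 16.7 and 15.7 CPM at 60 min, against 14.2, 13.6 and 14.7 CPM at 0 min, without overlap (0.21, adjusted p = 0.0254), and 0.27 at 30 min (adjusted p = 0.0167). Omitting 0 min replicate 1 or 2 ended the call of Slc35b3 at both times. So did omitting 60 min replicate 1 or 2 at 60 min and 30 min replicate 2 or 3 at 30 min. The call at 60 min was also lost in DESeq2, with plain totals and with no filter on low counts, and that at 30 min in DESeq2. Over all alternatives that lost it, adjusted p was 0.0625 to 0.124 at 60 min and 0.0516 to 0.0673 at 30 min. The calls of Slc35a3 (0.12, adjusted p = 0.044) and of Slc35b4 (-0.13, adjusted p = 0.0469), both carriers of UDP-N-acetylglucosamine, were lost under 10 and 13 of 17 alternatives, with adjusted p up to 0.378 and 0.139. Leaving out any 30 min replicate, 0 min replicate 1 or 3 or 60 min replicate 1 or 2 ended both, and 0 min replicate 2 that of Slc35b4.

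Of the 10 genes for organic ions and anions none rose and 2 fell at 60 min. Slco4a1, an organic anion transporter of thyroid hormones, had 145, 140 and 156 CPM at 60 min, against 190, 182 and 164 CPM at 0 min, with no overlap (log2 change -0.28, adjusted p = 0.000915). Slc17a9, which loads ATP into vesicles, had 11.4, 12.7 and 13.6 CPM at 60 min, against 16.2, 14.0 and 15.3 CPM at 0 min (-0.27, adjusted p = 0.0253). That call was lost without 0 min replicate 1 or 3 or 60 min replicate 1 or 2 (adjusted p 0.0558 to 0.102).

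Among 8 vitamin and choline genes, 2 rose and 2 fell at 60 min (1 and 3 with plain totals). The vitamin C carrier Slc23a2 rose by 0.21 (adjusted p = 0.00138), with 122, 129 and 116 CPM at 60 min against 105, 106 and 107 CPM at 0 min. The choline transporter Slc44a1 rose by 0.15 (adjusted p = 0.0446) and its relative Slc44a2 had a log2 change of -0.16 (adjusted p = 0.00424). The lysosomal Slc46a3 had -0.31 (adjusted p = 0.0354). The calls of Slc44a1 and Slc46a3 were lost under 11 and 9 of 17 alternatives (adjusted p up to 0.283 and 0.175). These included leaving out 0 min replicate 1 or 3 or 60 min replicate 1 or 3 for both, any 30 min replicate for Slc44a1 and 60 min replicate 2 for Slc46a3. The riboflavin carrier Slc52a2 fell early, with 36.0, 35.2 and 35.4 CPM at 0 min, 29.7, 30.0 and 31.8 CPM at 30 min and 32.3, 32.8 and 33.1 CPM at 60 min. It was called at 30 min (-0.22, adjusted p = 0.00603) and not at 60 min (-0.12, adjusted p = 0.0663), and the step between them, 0.10, was not called either (adjusted p = 0.15).

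Among the 5 genes of the fatty acid and bile acid families, Slc27a1 (FATP1, long-chain fatty acids) rose where Slc27a3 fell. It had 211, 210 and 223 CPM at 60 min, against 188, 174 and 184 CPM at 0 min, with no overlap (log2 change 0.24, adjusted p = 0.000344). Slc27a4 had 0.10 (adjusted p = 0.392). Slc27a3 lies 131.6 kb from the zinc carrier Slc39a1 on chromosome 3, and the neighbours changed in opposite directions, as did Slc25a43 and Slc25a5, 18.4 kb apart on the X chromosome.

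The courses over time fell into few kinds. Of the 182 genes, 113 were called in no comparison and 69 in at least 1. Courses were sorted for the members only, so no share of all genes stands beside these counts. The largest class, with 26 rises and 20 falls, was called at 60 min against 0 min and missed the threshold at 30 min. For 17 of these rises and 12 of the falls 60 min also differed from 30 min in its own test, and for the other 9 and 8 it was not called. Another 10 rose at 30 min and again from 30 to 60 min: Slc15a3, Slc31a2, Slc7a11, Slc2a6, Slc2a1, Slc20a1, Slc39a1, Slc9a8, Slc6a8 and Slc3a2. No member fell at both steps. A change at 30 min with no further call by 60 min was seen for 5 rises, Slc16a3, Slc35e4, Slc35b3, Slc25a5 and Slc25a39, and 5 falls, Slc52a2, Slc35b4, Slc15a4, Slc29a2 and Slc25a40. Slc25a36 returned, and Slc45a4 and Slc12a9 were lower at 60 min than at 30 min (-0.14, adjusted p = 0.0479, and -0.22, adjusted p = 0.0197) without a call against 0 min. The Slc12a9 call was lost in DESeq2 and without 30 min replicate 3 or 60 min replicate 1, with adjusted p of 0.0573 to 0.0805, and that of Slc45a4 under 13 of 17 alternatives, among them without 0 min replicate 1 and without any 30 min or 60 min replicate (0.0533 to 0.167). Among the calls at 30 min, those of Slc9a8 (0.17, lost without 30 min replicate 1 or 3), Slc6a8 (0.15, lost without 0 min replicate 3 or 30 min replicate 2 or 3), Slc25a5 (0.15, lost without 0 min replicate 1 or 2 or 30 min replicate 2 or 3) and Slc25a39 (0.12, lost under 15 of 17 alternatives, every library omission but that of 60 min replicate 2) were narrow. So was that of Slc35b4 (-0.16), lost without any 0 min or 30 min replicate or 60 min replicate 2. The adjusted p where these calls were lost ran to 0.063 for Slc9a8, 0.0799 for Slc6a8, 0.0915 for Slc25a5, 0.181 for Slc25a39 and 0.187 for Slc35b4.

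Before LPS the carriers spanned a wide range per length. Levels between genes are given as RPKM, the CPM per kilobase of merged exons. At 0 min the highest was Slc25a5 at 241 RPKM, whose near-identical pseudogene copies make its count uncertain, then the lactate carrier Slc16a1 at 93.6 RPKM, Slc38a2 at 86.9 RPKM, the taurine carrier Slc6a6 at 65.2 RPKM and Slc7a5 at 60.6 RPKM. The median was 6.32 RPKM, with 59 genes above 10 RPKM and 16 below 1 RPKM. Several of the most abundant carriers were not called at 60 min, among them Slc16a1, Slc6a6 (log2 change -0.02, adjusted p = 0.742) and Slc7a5, and of the 4 members that rose at least 2-fold, Slc31a2 began at 1.84 RPKM, Slc15a3 at 2.64 RPKM, Slc7a11 at 3.77 RPKM and Slc2a6 at 14.8 RPKM. Members called higher at 60 min had a median of 13.0 RPKM at 0 min, those called lower 5.55 RPKM and those not called 5.60 RPKM. In CPM these medians were 72.1, 26.7 and 27.4. More counts make a small change easier to call, and whether that bears on these medians was not tested.

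**Figure D4:**
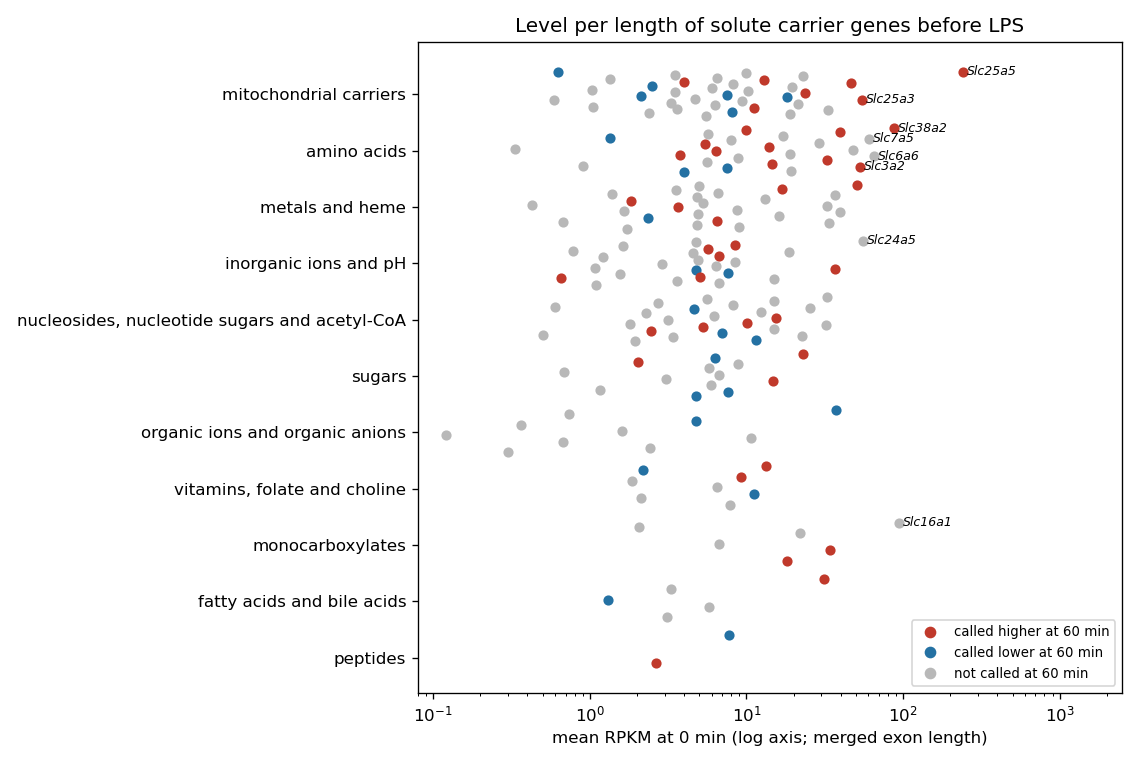
Mean RPKM at 0 min (log axis) of each of the 182 genes, in rows by family group and coloured by the call at 60 min against 0 min; vertical position within a row has no meaning. Slc25a5 is highest at 241 RPKM, genes called higher, lower and not at all occur over most of the range, and the organic ion group holds the lowest values.

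Slc24a5, known as a carrier of pigment cells, stood at 55.5 RPKM, but 921 of its exon bases are shared with Myef2 on the opposite strand, and the strand setting of the counting is not given in the sources used here. Of the 182 genes, 28 shared exon bases with another tested gene, 5 of them on the same strand. Among the members called at 60 min such overlaps touched 3, Slc15a3, Slc20a1 and Slc6a9, each with a gene on the opposite strand that was not called.

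Genes that work with these carriers, but are none themselves, were followed as a list of 27, of which 25 were tested. At 60 min 11 rose and 2 fell, at 30 min 6 rose and 1 fell, and 5 were higher and 1 lower at 60 min than at 30 min. With plain totals these counts were 8 and 7, 5 and 1, and 4 and 1. With TMM factors, 13.3% of all genes tested rose and 11.7% fell at 60 min, 4.84% and 3.35% at 30 min, and 8.87% and 7.65% between those times. The shares of all genes with plain totals are not given here. Txnip, an arrestin that drives removal of glucose carriers from the cell surface, had 198, 184 and 201 CPM at 0 min, 79.3, 99.9 and 98.6 CPM at 30 min and 86.5, 84.0 and 86.1 CPM at 60 min. Both later times were far below 0 min, with log2 changes of -1.18 (adjusted p = 7.98e-09) at 60 min and -1.07 (adjusted p = 7.86e-08) at 30 min. Its relatives on the list, Arrdc4 and Arrdc3, were low, with means of 4.31 and 4.43 CPM at 0 min. Arrdc4 went the other way and rose at 60 min (0.52, adjusted p = 0.00665). Arrdc3 was not called at 60 min against 0 min (-0.44, adjusted p = 0.0924) and was lower at 60 min than at 30 min (-0.77, adjusted p = 0.00757). The glucose-using Hk2 (0.12), Ldha (0.16) and Pfkfb3 (0.31) rose at 60 min, with adjusted p of 0.0296, 0.0168 and 0.000182. The calls of Hk2 and Ldha were lost with plain totals and without 0 min replicate 1 or 2 or 60 min replicate 1 or 2, and that of Hk2 also without 0 min replicate 3 (adjusted p up to 0.33 and 0.17).

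Among regulators, Nfe2l2 (NRF2), which drives genes of the antioxidant response, had 300, 289 and 284 CPM at 0 min, 420, 360 and 359 CPM at 30 min and 544, 512 and 560 CPM at 60 min. The times did not overlap and the log2 change was 0.89 (adjusted p = 2.22e-08) at 60 min. Atf4, which drives amino acid response genes, rose by 0.26 (adjusted p = 0.000104), and Hif1a by 0.13 (adjusted p = 0.00844, and 0.145 with plain totals). The glutathione genes Gclc and Gclm had -0.10 and -0.13 (adjusted p = 0.205 and 0.394), and Chac1, which degrades glutathione, rose by 0.61 (adjusted p = 0.000399). Nos2, which makes nitric oxide from arginine, had 2.14, 1.25 and 1.46 CPM at 60 min, against 0.183, 0.0703 and 0.162 CPM at 0 min, and rose by 3.50 (SE 0.37, adjusted p = 6.93e-06). Of the metal genes Tfrc, the transferrin receptor, rose by 0.29 (adjusted p = 0.00076), while metallothionein Mt1 and heme oxygenase Hmox1 did not pass (-0.04 and -0.08, adjusted p = 0.725 and 0.156). Bsg, the chaperone of Slc16a1 and Slc16a3, had 0.01 (adjusted p = 0.833).

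The authors' deposited tables of their own comparisons gave 31 members higher and 16 lower at 60 min (adjusted p under 0.05), all of which were also called in the same direction here. The fit here called more, 41 and 24. Those not called by the authors included Slc12a4, Slc2a9 and Slc50a1, with DESeq2 adjusted p of 0.0567, 0.173 and 0.205 in their table. For 30 min the authors' deposited table gave 13 higher and 4 lower, of which 12 and 3 were also called here. The shares of all genes called in the authors' tables are not given here, so these counts cannot be called particular to the members. The authors' deposited tables name no baseline, and 0 min was taken from the values, since their log2 changes lay within 0.009 of those against 0 min here for all 182 members.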

How the data were processed

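RNA was sequenced from IMM cells at 0, 30 and 60 min of LPS, 3 libraries per time, and 1 column per library was used. The deposited expected counts per gene are not normalized; the authors estimated them with RSEM 1.3.1 after bcl2fastq 2.20, cutadapt 1.18, STAR 2.7.0f and Picard 2.18.26 on build mm10, per the submitters' processing notes. RSEM shares reads that match several genes, so near-identical copies are uncertain; for settings, annotation and strand the labels say nothing (not given in the sources used here). The authors' deposited DESeq2 tables hold a mean signal of scaled counts, a log2 fold change and its error on the log2 scale, a test score, and a p-value with an adjusted p-value per gene, per the file headers; only the log2 changes and adjusted p-values were read, as the authors' own.

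Expected counts were rounded (5.04% to 5.32% of a library's values were not whole) and genes kept by filterByExpr, which left 14246. All 9 libraries entered 1 quasi-likelihood fit in edgeR 4.0.16 (R 4.3.3) with TMM factors (0.9705 to 1.034) and time as the only term; p-values were two-sided and Benjamini-Hochberg adjusted over all genes tested, with a threshold of 0.05. The fit was tested on simulated counts, with the outcome not reported here. CPM use TMM-scaled totals, except for the minimum that chose the members and for markers, which use plain totals. The SE of a log2 change is its size divided by the root of its F value. RPKM divides by merged exon length of GENCODE M21 on GRCm38. With 3 libraries per time, the number of libraries limits the precision. Replicate pairs differed by more than sampling noise (mean chi-square per gene 5.02 to 18.6). Same-numbered libraries did not deviate together (r from -0.0637 to 0.00609, 0 of 9 pairs over 0.1), so the numbers were not used as pairs.

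The members, family groups, partner list and rules were chosen with earlier results of these data known. The rule for named genes took, per comparison, up to 15 rises and 15 falls of largest size among called members, the 2 highest per length in each group, those nearest the minimum, non-carriers and every partner: 64 members and 27 partners, of which those without a result that adds to the text are given as counts. Further members named are relatives of these or had a call, and were chosen after their values were seen. Groups follow family numbers, so single members may carry something else. Alternatives were DESeq2 1.42.0, limma-voom 3.58.1, DESeq2 size factors or plain totals in edgeR, no filter or a minimum count of 50, a replicate block, only the times compared, each library left out, and a mean CPM minimum of 0.5 or 2. The test result of 1 of the 182 members, which was counted with the rest, is left out of the text.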

Additional observations from a re-analysis of the deposited data

Results flagged for a closer look

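In 42 members the change at 60 min differed from that at 30 min, as the comparison of 60 min with 30 min tested directly in edgeR (adjusted p under 0.05, n = 3 per time; differences are log2, 60 min minus 30 min). Of the members 14.8% were higher and 8.24% lower at 60 min than at 30 min, against 8.87% and 7.65% of all genes tested. The largest positive differences were those of the copper transporter Slc31a2 (1.73), the cystine exchanger Slc7a11 (0.94) and the peptide carrier Slc15a3 (0.93), all already higher at 30 min than at 0 min. They were followed by the iron carrier Slc11a2 (0.66), the hexose carrier Slc2a6 (0.54), Slc7a8 (0.48), Slc9a4 (0.46), Slc43a3 (0.41), Slc25a33 (0.40), Slc25a37 and Slc4a7 (0.39 each). Smaller ones were those of Slc2a1 (0.33), Slc8b1 (0.32), Slc30a6, Slc31a1 and Slc35f6 (0.31 each), Slc39a1 and Slc12a4 (0.23 each), Slc6a8 and Slc9a8 (0.21 each), Slc27a1 (0.20), Slc16a10 (0.17), Slc20a1, Slc23a2 and Slc44a1 (0.16 each), Slc3a2 (0.12) and Slc7a1 (0.11).

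The 15 negative differences were led by Slc27a3 (-1.25), the anion transporter Slc26a11 (-0.57) and the lysosomal arginine sensor Slc38a9 (-0.41). Slc36a1 had -0.33, Slc17a9 -0.31, Slc37a2 -0.26, Slc12a9 and Slc37a3 -0.22 each, Slc12a7 -0.21, Slco4a1 -0.20, Slc29a3 -0.19, Slc25a22 -0.15, Slc25a36 and Slc45a4 -0.14 each, and Slc44a2 -0.13. Leaving out at least 1 single library ended the call, with adjusted p up to 0.198, for Slc3a2, Slc7a1, Slc9a4, Slc12a7, Slc12a9, Slc17a9, Slc23a2, Slc25a22, Slc25a33, Slc25a36, Slc29a3, Slc37a3, Slc44a1, Slc44a2, Slc45a4 and Slco4a1.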

How the results depend on the processing

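No called member changed its direction in any of 17 alternative fits. Calls were kept in every one of them for 26 of 41 rises and 15 of 24 falls at 60 min against 0 min, 9 of 16 rises and 2 of 5 falls at 30 min against 0 min, and 21 of 27 rises and 5 of 15 falls at 60 min against 30 min. With plain library totals 26 members rose and 43 fell at 60 min against 0 min, and 27 were lower at 60 min than at 30 min; DESeq2 size factors gave 41 and 24, and 14. Falls at 30 min against 0 min numbered 3 in DESeq2. Leaving out 1 library at a time gave 10 to 18 rises and 2 to 6 falls at 30 min against 0 min, 31 to 38 and 16 to 23 at 60 min against 0 min, and 21 to 28 and 8 to 18 at 60 min against 30 min. The fit with the replicate number as a block, which the labels give no reason to read as pairs, gave 15 rises and 2 falls at 30 min against 0 min, 37 and 22 at 60 min against 0 min, and 22 and 14 at 60 min against 30 min. Why the counts moved was not tested, beyond the smaller number of libraries where 1 was left out. Precision was limited by the 3 libraries per time. At 60 min the standard error of the log2 change was 0.24 for Slc27a3 and 0.16 for Slc31a2, both low, against 0.04 for the abundant Slc20a1, and the smallest change called was the 0.09 of Slc38a1.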

Other observations

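Among the genes with a solute carrier symbol below the minimum of 1 CPM, 14 were tested, and at 60 min against 0 min 1 was called higher and 1 lower. Slc17a8, a vesicular glutamate transporter, had 54 counts summed over the 60 min libraries, against 24 over the 0 min libraries (log2 change 1.14, adjusted p = 0.0273 in edgeR). Slc25a35, a mitochondrial carrier family member, had 29 summed counts at 60 min, against 93 at 0 min (log2 change -1.69, adjusted p = 0.000605), with 51 at 30 min. Both rest on few counts. No such gene was called at 30 min against 0 min or at 60 min against 30 min.

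Members lay on every autosome and the X chromosome, most on chromosome 11 (21) and chromosome 2 (20).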
